A study of Mus musculus with 72 samples.

Results

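H3K27ac was compared between oligodendrocyte and neuronal nuclei of wild-type (WT) mouse brain. The regions compared were chosen by position alone: each peak in the olig2 table was paired with the nearest peak of the neun table whose centre, the midpoint of start and end, lay within 200 bp on the same chromosome. Of 82577 olig2 peaks, 32437 had such a partner (39.3%), and 30876 of those pairs carried enough tags to be tested. The neun table held 107627 peaks, of which 32330 served as a partner (30.0%), while 75197 had no olig2 peak within that distance (69.9%). By their label these are ATAC-seq peaks, which mark open chromatin, and H3K27ac tags were counted in windows at them. A peak found in only 1 table is therefore a difference in peak calls and not by itself in H3K27ac. In single WT libraries 1.07% to 8.13% of the peaks held no H3K27ac tag. The study as a whole holds 72 ChIP-seq samples of sorted brain nuclei from WT mice and mice without Sgsh (SgshKO), a lysosomal enzyme. The 8 libraries compared here were olig2 and neun H3K27ac from WT C57BL/6 mice at 4 and 8 months, with 2 libraries per cell type and age. Olig2 nuclei were sorted as PU.1-/OLIG2+/NEUN-/DAPI+ and neun nuclei as PU.1-/OLIG2-/NEUN+/DAPI+ from formaldehyde-fixed brain, so the genes of OLIG2 and of NEUN (Rbfox3) mark the sort itself. The labels do not state whether replicates came from separate animals, and p-values therefore measure only the spread between these samples. An OLIG2 gate can also hold oligodendrocyte progenitors and some astrocytes, and a NEUN gate can hold neurons of different classes. The 8 matching libraries of SgshKO mice, C57BL/6 and of the same ages and gates, were analysed apart from the WT libraries.

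H3K27ac is acetylation of lysine 27 on histone H3, a mark of active promoters and enhancers. Oligodendrocytes wrap axons in myelin, a membrane rich in cholesterol and galactolipids, and their identity is set by transcription factors such as OLIG1, OLIG2, SOX10 and MYRF. Neurons are known for synaptic, ion channel and neurotransmitter genes, and for genes that are switched on by electrical activity. The signal used below is the number of tags in a window of 800 bp around a peak per 10M tags of the library, scaled across the 8 libraries by TMM, a method that assumes that most regions do not differ in one direction. Differences are olig2 minus neun on the log2(signal + 1) scale, which understates the change at weak regions. A lower signal from fewer nuclei with the mark and from less mark per nucleus cannot be told apart.

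RefSeq promoters (GRCm38.p6, the mm10 build; 250 bases before to 50 after the start) were read for the genes on which the comparison turns. Of 10788 genes with a tested promoter pair (olig2 peak within 1000 bp of a start), 7565 had a RefSeq promoter that overlapped the olig2 window. Capitals mark matches on either strand, which may overlap. The letters searched were ACAATG and also ACAAAG for SOX factors, the E-box CAGCTG with its variants CAGATG and also CACGTG, CCGGAAGT for ETS factors, TGACGTCA for the cyclic AMP element, CTAAAAATA for MEF2 and CAGCACCNNGGACAG for REST, where N is any base. The shorter element TGACG, which lies within the cyclic AMP element, was also searched but is not capitalised. Mobp, Mag, Cnp and Olig2 are shown as promoters marked in olig2 nuclei, Tfeb as a regulator of the lysosome on which the wider study centres, and Neurod2, Gad2 and Syt1 as promoters marked in neun nuclei. Mobp lies at chr9:120149492-120149791 (plus strand), Mag at chr7:30914814-30915113 (minus strand), Cnp at chr11:100574689-100574988 (plus strand) and Olig2 at chr16:91225300-91225599 (plus strand). Tfeb lies at chr17:47736787-47737086 (plus strand), Neurod2 at chr11:98329596-98329895 (minus strand), Gad2 at chr2:22622077-22622376 (plus strand) and Syt1 at chr10:109010926-109011225 (minus strand).
Mobp: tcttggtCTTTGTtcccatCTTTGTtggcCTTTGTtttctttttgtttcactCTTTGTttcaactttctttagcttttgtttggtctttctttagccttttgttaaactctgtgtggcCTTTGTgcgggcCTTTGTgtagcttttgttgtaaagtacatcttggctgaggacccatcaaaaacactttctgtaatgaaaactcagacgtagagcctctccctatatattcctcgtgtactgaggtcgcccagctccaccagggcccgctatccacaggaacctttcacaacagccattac
Mag: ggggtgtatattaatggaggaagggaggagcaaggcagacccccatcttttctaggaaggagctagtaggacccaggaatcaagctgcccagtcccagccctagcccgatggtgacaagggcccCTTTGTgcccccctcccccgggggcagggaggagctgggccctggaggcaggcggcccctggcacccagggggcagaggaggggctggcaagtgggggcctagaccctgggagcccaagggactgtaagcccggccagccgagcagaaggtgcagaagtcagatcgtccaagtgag
Cnp: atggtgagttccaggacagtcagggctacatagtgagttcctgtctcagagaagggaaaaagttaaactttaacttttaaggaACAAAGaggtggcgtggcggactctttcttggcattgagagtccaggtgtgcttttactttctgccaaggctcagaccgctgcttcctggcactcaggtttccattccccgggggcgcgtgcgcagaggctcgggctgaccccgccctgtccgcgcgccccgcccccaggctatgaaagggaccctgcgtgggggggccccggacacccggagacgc
Olig2: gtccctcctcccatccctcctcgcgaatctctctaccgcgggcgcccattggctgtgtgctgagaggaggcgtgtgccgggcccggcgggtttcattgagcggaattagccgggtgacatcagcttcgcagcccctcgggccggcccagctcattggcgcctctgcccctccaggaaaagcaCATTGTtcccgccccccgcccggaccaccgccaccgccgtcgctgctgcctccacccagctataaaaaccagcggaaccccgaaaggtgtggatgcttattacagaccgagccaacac
Tfeb: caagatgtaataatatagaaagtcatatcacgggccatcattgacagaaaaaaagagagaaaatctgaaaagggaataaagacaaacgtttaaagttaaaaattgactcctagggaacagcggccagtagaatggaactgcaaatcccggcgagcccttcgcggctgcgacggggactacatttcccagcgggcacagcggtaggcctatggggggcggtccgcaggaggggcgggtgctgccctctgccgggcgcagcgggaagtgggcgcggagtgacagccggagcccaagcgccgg
Neurod2: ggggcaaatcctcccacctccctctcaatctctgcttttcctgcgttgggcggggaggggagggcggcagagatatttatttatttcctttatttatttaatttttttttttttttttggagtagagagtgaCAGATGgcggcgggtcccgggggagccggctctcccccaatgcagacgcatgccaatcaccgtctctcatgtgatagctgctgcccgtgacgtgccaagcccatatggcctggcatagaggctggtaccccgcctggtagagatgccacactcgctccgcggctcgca
Gad2: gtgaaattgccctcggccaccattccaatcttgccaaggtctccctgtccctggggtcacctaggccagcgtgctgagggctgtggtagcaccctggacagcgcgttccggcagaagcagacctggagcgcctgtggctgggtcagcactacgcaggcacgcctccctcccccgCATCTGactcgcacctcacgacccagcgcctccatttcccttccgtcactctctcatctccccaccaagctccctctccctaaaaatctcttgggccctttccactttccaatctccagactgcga
Syt1: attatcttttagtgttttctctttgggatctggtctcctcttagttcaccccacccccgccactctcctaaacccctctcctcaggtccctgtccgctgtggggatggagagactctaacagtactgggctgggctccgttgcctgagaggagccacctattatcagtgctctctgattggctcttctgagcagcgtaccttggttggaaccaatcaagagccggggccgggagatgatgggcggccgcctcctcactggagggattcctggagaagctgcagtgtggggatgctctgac

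The Mobp promoter held 6 matches, all to ACAAAG, and Mag and Cnp held 1 ACAAAG match each, at bases 125 and 84 of the window. The Olig2 promoter held ACAATG at base 183, and Neurod2 and Gad2 held CAGATG at bases 133 and 175. No capitalised match fell in the Tfeb or Syt1 windows. Across promoters with a peak in the olig2 table only (413 genes), 16.9% held ACAATG and 21.1% ACAAAG, beside 7.37% and 14.6% of the 1154 promoters with a neun peak only. Over all 27025 promoters in the table these shares were 12.8% and 18.7%. CAGATG was held by 15.3% of the olig2-only and 16.4% of the neun-only promoters (17.2% of all), and CAGCTG by 22.8% and 17.9% (16.1% of all). Among paired promoters, the ETS letters were found at 12.2% of the 3198 called in neither direction, 4.41% of the 454 that were at least 4-fold higher in olig2 and 2.78% of the 862 at least 4-fold lower, beside 4.0% of all promoters. TGACGTCA stood at 4.19%, 1.76% and 3.94% of the same classes (1.88% of all), its part TGACG at 37.5%, 22.7% and 29.7% (21% of all), and CACGTG at 11.8%, 9.91% and 10.7% (7.24% of all). The MEF2 and REST letters each stood in under 1% of every class. Base composition moved with these classes: the median GC content was 56.7% at olig2-only, 59% at neun-only and 62% at paired promoters, against 52.7% in the whole table, and its part in the letter shares was not tested. A match is a description of the letters and not evidence of binding.

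Depth was uneven between the groups. The 4 WT olig2 libraries held 26849318 to 31173218 tags and the 2 neun libraries of 8 months 30160784 and 32523650, but those of 4 months only 7970059 and 6059671. Between 43.2% and 58.6% of olig2 tags and 37.9% to 39.8% of neun tags lay in the peaks of their own table. Counts in the 8-month ChIP columns moved in steps of 0.5 tag and those of 4 months in steps of 1 tag, so age and this difference cannot be told apart. The log2 signals of 2 libraries of one cell type correlated at 0.847 to 0.937 (Pearson's r over 30876 pairs, which are not independent replicates), and those of an olig2 and a neun library at 0.400 to 0.464. The input of olig2 nuclei at 8 months had no tag at 65.0% of the olig2 peaks, against 2.85% for the 4-month input, and stands apart from the other inputs.

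Promoter peaks were shared between the tables far more often than distal peaks. An olig2 peak within 1000 bp of a start had a neun partner in 75.9% of cases (15276 of 20120) and a more distant peak in 27.5%. The median distance between paired centres was 22 bp. Signal differed between the classes as well: among distal olig2 peaks the median was 27 tags per 10M without a partner and 9.29 with one, on the deposited scale. In the neun table distal peaks without a partner had a median of 15.9 and paired ones 10.3, and promoter peaks 39.2 and 46.4. Unpaired peaks held 72.0% to 73.1% of the peak tags of each WT olig2 library and 61.6% to 64.0% of each WT neun library. Unpaired peaks have no window in the other table, so no olig2 against neun test was made at them. Windows overlapped another window of the same table for 49.0% of olig2 and 36.4% of neun peaks, and a tag in such a place is counted more than once in sums over peaks.

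Acetylation differed between the cell types at most paired peaks. In the WT contrast over both ages (limma, Benjamini-Hochberg adjusted p below 0.05), 9692 of 30876 pairs were called higher in olig2 (31.4% of those tested) and 9082 lower (29.4%). Of these, 7829 were at least 2-fold higher and 7522 at least 2-fold lower, and 4398 and 4050 differed by at least 4-fold. The 4 olig2 and the 4 neun libraries did not overlap at 16633 pairs (53.9%). A pair could pass the filter on low tags through one cell type alone, so these shares describe pairs that passed and not all 32437. Among promoter pairs 26.5% were called higher and 34.3% lower (4007 and 5191 of 15116), whereas among distal pairs 36.1% were higher and 24.7% lower (5685 and 3891 of 15760). The share called rose with the distance between the paired centres, from 56.6% at 0 to 10 bp to 66.2% at over 100 to 200 bp. The division into higher and lower rests on the scaling: with library totals in place of TMM 7550 pairs were higher and 11629 lower, and the median of all pairs moved from 0.05 to -0.30.

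**Figure D1:**
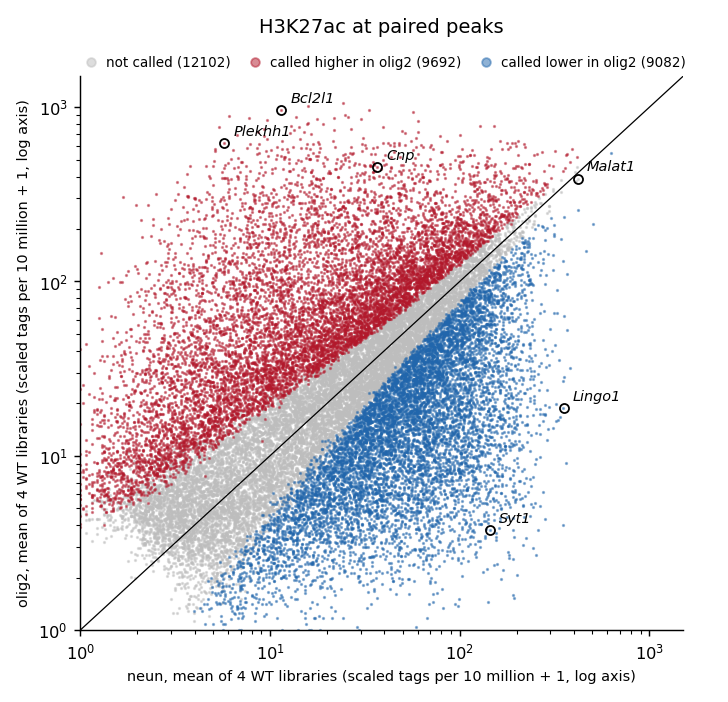
Mean H3K27ac signal of the 4 WT neun libraries (x axis) and the 4 WT olig2 libraries (y axis) at each tested pair, in scaled tags per 10M plus 1 on log axes; the line marks equal signal and open circles mark named pairs. The 9692 pairs called higher in olig2 lie above the line and the 9082 called lower below it, with Plekhh1 near the left edge and Malat1 close to the line.

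Genes of the myelin sheath carried far more H3K27ac in olig2 nuclei. In the list of 24 myelin proteins 72 of 109 tested pairs were called higher and 12 lower, with a median log2 difference of 1.75, beside 31.4%, 29.4% and 0.05 for all tested pairs. The values for all tested pairs stand as the comparison for each list below. Its promoter pairs were called higher in 17 of 19 cases, beside 26.5% of all promoter pairs. Cnp, an enzyme of the myelin membrane, had olig2 values of 415 and 462 at 4 months and 437 and 491 at 8 months and neun values of 33.5 and 31.9 at 4 months and 35.5 and 41.8 at 8 months at its start (chr11:100574522-100575322). All olig2 libraries lay far above all neun libraries, although the neun signal was not near 0, and the log2 difference was 3.63 (SE 0.13, adjusted p = 4.30e-12). Cldn11, a tight junction protein between myelin layers, stood at 151 and 107 at 4 months and 139.8 and 138 at 8 months in olig2 and at 0 and 3.99 at 4 months and 2.42 and 1.9 at 8 months in neun. The log2 difference at Cldn11 was 5.66 (SE 0.44, adjusted p = 1.73e-08), with no overlap between the groups. Tspan2, a tetraspanin of oligodendrocytes, had a log2 difference of 4.69.

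The one myelin promoter pair called lower was nearest a start of Mbp, myelin basic protein, on chromosome 18 (chr18:82474722-82475522). There the olig2 signal was 0.954 and 10.2 at 4 months and 2.0 and 6.45 at 8 months and the neun signal 53.4 and 35.9 at 4 months and 27.1 and 70.3 at 8 months, a log2 difference of -3.25 (SE 0.54, adjusted p = 7.93e-05). The same gene had 19 of 32 tested pairs called higher and 5 lower, and 89 unpaired olig2 peaks against 25 neun peaks, so its windows did not move as one. For Mog, Mag, Mobp and Mal, components of the myelin sheath, the promoter had an olig2 peak and no neun peak. The deposited olig2 signal at Mag was 360.2 and 384 at 4 months and 789 and 811 at 8 months, and at Mog 465 and 406 at 4 months and 643 and 778 at 8 months. Mobp reached 349 and 435 at 4 months and 544 and 563 at 8 months. Away from its promoter, Mobp had 4 of 8 tested pairs called higher and 3 lower, and 71 unpaired olig2 peaks against 5 neun peaks, promoter peaks included. The mean at Mag was 586 ± 247 (SD, n = 4) against a 4-month input of 0.22, which placed it at percentile 99.5 of the olig2 peaks, and Mog and Mobp stood at percentiles 99.4 and 98.7. Over the whole list, 10 of 24 genes had a promoter peak in the olig2 table only, none in the neun table only, beside 4.8% and 11.9% of the 19478 genes nearest to any peak. Peaks without a partner numbered 635 in olig2 and 84 in neun, beside 50140 and 75197 over all genes.

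**Figure D2:**
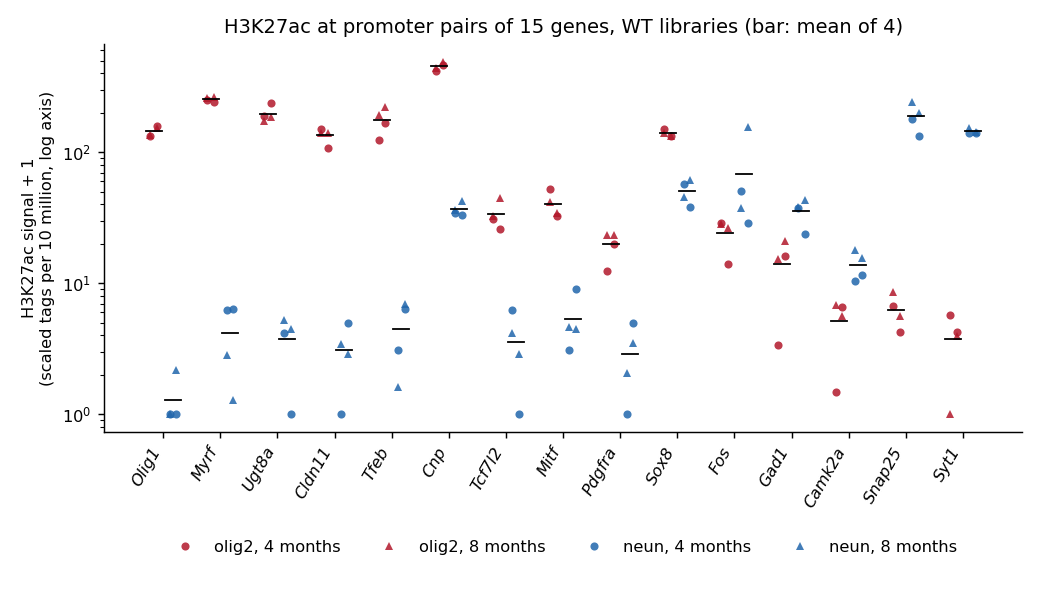
H3K27ac signal at the promoter pairs of 15 genes in the 8 WT libraries (y axis, scaled tags per 10M plus 1, log axis), with circles for 4 months, triangles for 8 months and a bar for the mean of 4 libraries, ordered by the difference. The olig2 points lie above the neun points from Olig1 to Sox8 and below them from Fos to Syt1.

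Transcription factors that set oligodendrocyte identity followed the same direction with more variation. In the list of 18 factors 27 of 51 tested pairs were called higher and 10 lower, with a median log2 difference of 1.08. Olig1, a basic helix-loop-helix factor, had olig2 signals of 133 and 159 at 4 months and 134 and 153 at 8 months at its start (chr16:91269264-91270064). Of the neun libraries, 3 had no tag in that window and 1 stood at 1.17, and the log2 difference was 6.9 (SE 0.40, adjusted p = 6.37e-10). At Myrf, the regulator of myelin genes, olig2 values were 248 and 241 at 4 months and 257 and 264 at 8 months and neun values 5.24 and 5.32 at 4 months and 1.82 and 0.292 at 8 months. The groups stood apart, with a log2 difference of 6.19 (SE 0.29, adjusted p = 6.03e-11). Sox8 showed a smaller contrast, with olig2 at 149 and 132 at 4 months and 140.2 and 132 at 8 months and neun at 56.6 and 37.3 at 4 months and 44.5 and 60.5 at 8 months. Its log2 difference was 1.48 (SE 0.18, adjusted p = 2.83e-06). Tcf7l2, a Wnt pathway effector, stood lower in both cell types, at 32.7 ± 8.07 in olig2 and 2.58 ± 2.2 in neun (mean ± SD, n = 4), with a log2 difference of 3.48 (SE 0.55, adjusted p = 4.51e-05). Over all their tested pairs, Myrf had 3 called higher and 1 lower of 8, Sox8 5 and 2 of 8, and Tcf7l2 1 and 1 of 3.

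Olig2, whose protein was the sort antigen, had a promoter peak in the olig2 table only, at 121 and 94.1 at 4 months and 189 and 178 at 8 months on the deposited scale, and so did Sox10, Nkx2-2 and Nkx6-2, at means of 209, 134 and 100.0 over 4 libraries. Around Olig1 and Olig2 the unpaired peaks numbered 47 and 37 in the olig2 table and 0 in the neun table. Creb5 and Zfp536 also had promoter pairs called higher, with log2 differences of 5.36 and 3.25.

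Progenitor genes were more often higher than lower in olig2 nuclei. Of the 32 tested pairs of the 16 progenitor genes, 15 were called higher and 5 lower, with a median log2 difference of 0.87. These shares were 46.9% and 15.6%, beside 31.4% and 29.4% of all tested pairs. Among pairs of widely expressed genes they were 44.4% and 21.1%. Pdgfra, the receptor that defines progenitors, had olig2 values of 11.4 and 18.9 at 4 months and 22.6 and 22.5 at 8 months and neun values of 0 and 3.99 at 4 months and 1.06 and 2.48 at 8 months. The difference of 2.98 (SE 0.58, adjusted p = 0.000334) had no overlap between groups, and the olig2 mean was 18.8, beside 451 in a window of equal length at Cnp. Cspg4, which encodes the NG2 proteoglycan, had an olig2-only promoter peak of 16.8 and 7.0 at 4 months and 14.1 and 12.9 at 8 months on the deposited scale. Gpr17, a receptor of newly formed oligodendrocytes, had 24 unpaired olig2 peaks and no neun peak. Olfm2, also in the list, had 3 of 5 tested pairs called lower. The share of progenitors among the sorted nuclei was not tested.

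Genes of lipid synthesis did not move as one. In the list of 28 genes for cholesterol and myelin lipids 40 of 67 tested pairs were called higher and 5 lower, with a median log2 difference of 0.97. Ugt8a, which makes galactosylceramide, had olig2 values of 189 and 235 at 4 months and 173 and 186 at 8 months and neun values of 3.14 and 0 at 4 months and 4.24 and 3.51 at 8 months, a log2 difference of 5.96 (SE 0.39, adjusted p = 2.00e-09). Fa2h, a fatty acid hydroxylase, and Cers2, a ceramide synthase, had differences of 4.61 and 3.54, and the elongase Elovl1 of 4.34. Srebf1, a regulator of fatty acid synthesis, had all 6 tested pairs called higher, and the desaturase Scd2 all 8. Msmo1, a sterol oxidase of the cholesterol pathway, was lower instead at 1 window, with olig2 values of 43.4 and 39.7 at 4 months and 27.6 and 31.7 at 8 months and neun values of 35.6 and 45.3 at 4 months and 70.8 and 66.1 at 8 months, a difference of -0.57 (SE 0.22, adjusted p = 0.0316), although the groups overlapped at 4 months. Of the 3 tested pairs of Msmo1, 1 was called higher and 1 lower. Hmgcs1, an early enzyme of that pathway, had olig2 values of 66.8 and 87.2 at 4 months and 57.5 and 74.5 at 8 months and neun values of 70.2 and 65.2 at 4 months and 97.7 and 86.2 at 8 months, which overlapped (log2 difference -0.16, 95% interval -0.53 to 0.22, adjusted p = 0.459).

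Tfeb and Mitf, which encode MiT/TFE factors that regulate lysosome genes, were higher in olig2. At the Tfeb promoter (chr17:47736630-47737430) the olig2 signal was 122 and 167 at 4 months and 192 and 222 at 8 months and the neun signal 2.1 and 5.32 at 4 months and 0.606 and 5.99 at 8 months. The groups were far apart, with a log2 difference of 5.49 (SE 0.41, adjusted p = 1.09e-08), and 70 unpaired olig2 peaks against 4 neun peaks were nearest to Tfeb. Mitf had olig2 values of 51.5 and 31.8 at 4 months and 40.4 and 33.6 at 8 months and neun values of 2.1 and 7.99 at 4 months and 3.64 and 3.51 at 8 months, a difference of 3.01 (SE 0.43, adjusted p = 1.50e-05). Tfe3 stood at 11 and 1.85 at 4 months and 11.7 and 6.94 at 8 months in olig2 and at 6.29 and 17.3 at 4 months and 27.7 and 20.3 at 8 months in neun, a difference of -1.14 that missed the threshold (adjusted p = 0.0678). Over the list of 33 lysosome and MiT/TFE genes 18 of 66 tested pairs were called higher and 12 lower, with a median log2 difference of -0.05. These shares, 27.3% and 18.2%, were below the 31.4% and 29.4% of all tested pairs. With library totals in place of TMM the counts of this list reversed, to 12 higher and 25 lower. Sgsh itself, the gene knocked out in the SgshKO mice, had olig2 values of 91.6 and 108 at 4 months and 94.6 and 93.2 at 8 months and neun values of 8.38 and 3.99 at 4 months and 1.97 and 1.46 at 8 months in WT nuclei. Its log2 difference was 4.5 (SE 0.33, adjusted p = 8.89e-09), with no overlap, and in SgshKO nuclei it was 4.76; acetylation at a start does not check a knockout. The lysosomal enzymes Ctsl and Gaa were lower in olig2, with differences of -2.32 and -2.59, and Npc2, a cholesterol carrier of the lysosome, was higher (1.48). Of the tested pairs, 2 of 2 were called lower at Ctsl but 1 of 4 at Gaa, with 0 higher at either.

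**Figure D3:**
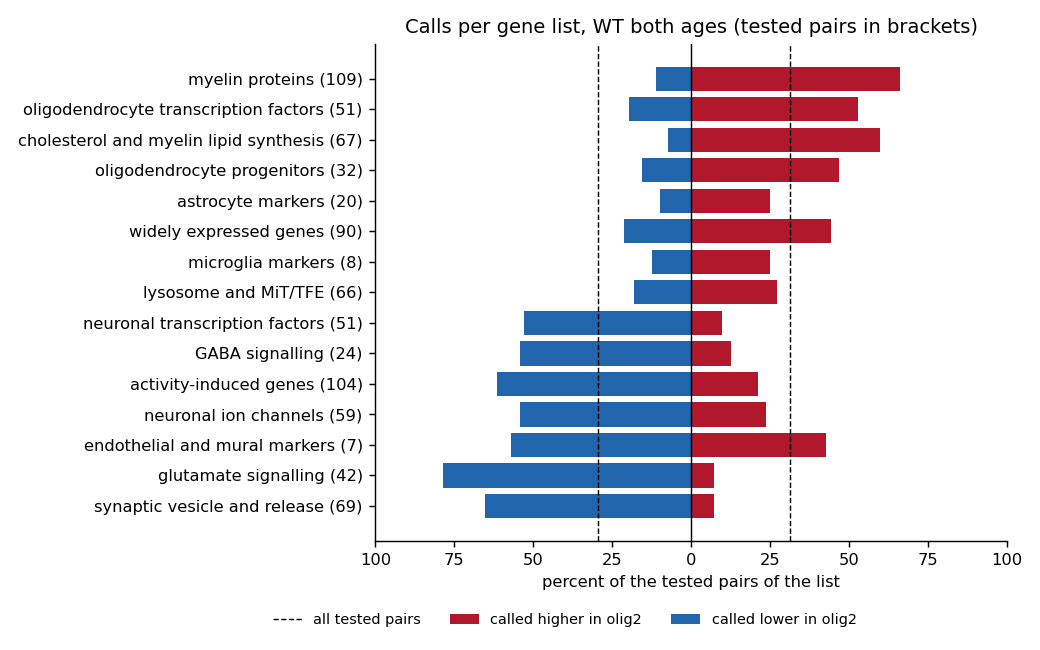
Percent of the tested pairs of each gene list called higher in olig2 (bars to the right) or lower (bars to the left), ordered by the median log2 difference, with the number of tested pairs in brackets and dashed lines for all tested pairs (31.4% and 29.4%). Myelin proteins reach 66.1% higher at the top and glutamate signalling 78.6% lower near the bottom.

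Many neuronal transcription factors had promoter peaks in neun nuclei alone. Of 31 genes, 16 had a promoter peak in the neun table only and none in the olig2 table only, beside 11.9% and 4.8% of the 19478 genes nearest to any peak. Among the pairs that existed 5 of 51 tested pairs were called higher and 27 lower, with a median log2 difference of -1.08. Neurod2, a factor of excitatory cortical neurons, had a neun promoter signal of 177 and 145 at 4 months and 257 and 219 at 8 months on the deposited scale. Tbr1, a factor of deep cortical layers, had a neun-only promoter at a mean of 173 ± 30.9 (SD, n = 4), and Neurod6, Mef2c and Bcl11b had means of 137, 117 and 126. Rbfox3, the gene of the NEUN antigen, stood at 201 and 209.6 at 4 months and 175 and 174 at 8 months. Among paired promoters, Rest, a repressor of neuronal genes in other cells, was higher in olig2: its values were 12.4 and 5.54 at 4 months and 8.52 and 7.11 at 8 months in olig2 and 2.1 and 0 at 4 months and 2.42 and 0.292 at 8 months in neun, a difference of 2.24 (SE 0.63, adjusted p = 0.00605) at a low level.

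The synaptic vesicle and release list and the glutamate signalling list had the lowest medians of the 15 lists. In the synaptic vesicle and release list 5 of 69 tested pairs were called higher and 45 lower, with a median log2 difference of -2.33. Syt1, the calcium sensor of release, had olig2 signals of 4.77 and 3.23 at 4 months and 0 and 2.97 at 8 months and neun signals of 140.4 and 139.8 at 4 months and 151 and 141 at 8 months at its start (chr10:109010648-109011448). Neun libraries lay within a narrow range well above olig2, and the log2 difference was -5.52 (SE 0.40, adjusted p = 7.05e-09). Snap25, a membrane fusion protein, had olig2 values of 5.72 and 3.23 at 4 months and 7.52 and 4.63 at 8 months and neun values of 179 and 132 at 4 months and 241 and 200.1 at 8 months, a difference of -4.93 (SE 0.27, adjusted p = 3.40e-10). Sncb and Bsn, a synuclein and an active zone scaffold, had differences of -5.43 and -4.37. Not every window of these genes was called lower. Vamp2, which also serves membrane traffic outside neurons, had olig2 values of 186 and 262 at 4 months and 196 and 172 at 8 months and neun values of 226 and 214 at 4 months and 245 and 267 at 8 months, which overlapped (log2 difference -0.24, 95% interval -0.49 to 0.01, adjusted p = 0.0954). Of the 5 tested pairs of Vamp2, 1 was called lower and 0 higher. Its 7 unpaired olig2 peaks summed to 66.8 and its 3 neun peaks to 401 on the deposited scale. Sv2a, a vesicle glycoprotein, was higher in olig2, at 193 ± 36 against 98.3 ± 22.3 (mean ± SD, n = 4), by 0.97 (SE 0.13, adjusted p = 9.84e-06). Of the 4 tested pairs of Sv2a, 1 was called higher and 0 lower.

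In the glutamate signalling list 3 of 42 tested pairs were called higher and 33 lower, with a median log2 difference of -2.26, and 534 unpaired neun peaks stood against 59 olig2 peaks. Grin2a and Grin2b, subunits of the NMDA receptor, had 70 and 43 unpaired neun peaks and no unpaired olig2 peak. Grin1, the shared subunit of that receptor, had olig2 values of 0.954 and 5.54 at 4 months and 3.34 and 4.96 at 8 months and neun values of 68.1 and 104 at 4 months and 96.7 and 109 at 8 months, a difference of -4.46 (SE 0.39, adjusted p = 7.47e-08). Shank3, a protein of the postsynaptic density, had a difference of -5.19. Slc17a7, the vesicular glutamate transporter, had a neun-only promoter at 120.5 and 132 at 4 months and 123 and 137 at 8 months on the deposited scale. Camk2a, a synaptic kinase, had weak windows at its start: olig2 0.477 and 5.54 at 4 months and 5.85 and 4.63 at 8 months and neun 9.43 and 10.6 at 4 months and 16.8 and 14.5 at 8 months. Its log2 difference was -1.62 (SE 0.54, adjusted p = 0.0162), which passed the threshold in WT but was -0.17 in SgshKO (adjusted p = 0.793), and the gene had 40 unpaired neun peaks and no unpaired olig2 peak. The WT call was lost without olig2 replicate 2, neun replicate 1 or neun replicate 2 of 8 months (adjusted p = 0.055, 0.0661 and 0.0506), and over the 4-month inputs the difference was -0.88 (adjusted p = 0.087).

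The GABA signalling list had fewer pairs, and 3 of 24 tested pairs were called higher and 13 lower, with a median log2 difference of -1.32. Gabbr2, of the metabotropic receptor, had a difference of -5.38 and 67 unpaired neun peaks against 1 olig2 peak. Gad2, an enzyme of GABA synthesis, had a neun-only promoter of 27.6 and 47.9 at 4 months and 37.8 and 47.4 at 8 months on the deposited scale. Gad1, the other such enzyme, had olig2 values of 2.38 and 15.2 at 4 months and 14.2 and 20.0 at 8 months and neun values of 36.7 and 22.6 at 4 months and 37.4 and 42.5 at 8 months. These sets were close to each other without overlapping, the log2 difference was -1.6 (SE 0.44, adjusted p = 0.00473), and in SgshKO it was -0.41 (adjusted p = 0.132). Over the 4-month inputs the WT difference was -0.18 (adjusted p = 0.741) and over the inputs of each age 0.02.

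Ion channel genes divided in a similar way. In the list 14 of 59 tested pairs were called higher and 32 lower, with a median log2 difference of -1.62. Kcnq5 and Cacna1b, a potassium and a calcium channel, had differences of -6.24 and -5.66. Some potassium channel genes went the other way at their paired peaks. Kcna1 had 7 of 10 tested pairs called higher and none lower, and Kcnq3 4 of 5. Unpaired peaks had the same direction at Kcna1, with 27 in olig2 and 7 in neun. At Kcnq3 they had the opposite direction, with 5 in olig2 and 16 in neun. At the Kcnq3 start olig2 values were 168 and 183 at 4 months and 151 and 171 at 8 months and neun values 85.9 and 65.2 at 4 months and 72 and 95.6 at 8 months, a difference of 1.08 (SE 0.15, adjusted p = 1.25e-05).

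Genes induced by activity were lower in olig2 at most of their pairs. In this list 22 of 104 tested pairs were called higher and 64 lower, with a median log2 difference of -1.45. Npas4, a factor induced by neuronal depolarisation, had no tag in 3 olig2 libraries and 2.86 in the other, against 67.1 and 53.2 at 4 months and 86.7 and 113 at 8 months in neun. Its log2 difference was -5.8 (SE 0.49, adjusted p = 4.21e-08). Fosb and Junb, of the AP-1 family, had differences of -4.12 and -3.04, and the zinc finger factor Egr1 of -2.57. Jun and Egr2 were higher in olig2, by 0.88 and 0.97, and 10 of the 15 tested pairs nearest Arc, whose protein acts at synapses, were called higher, although its start was lower (-0.80). Calls over all tested pairs were 3 higher and 0 lower of 6 at Jun, 3 and 1 of 4 at Egr2, and 10 and 4 of 15 at Arc. Fos varied between libraries. Its promoter stood at 27.7 and 12.9 at 4 months and 27.2 and 25.5 at 8 months in olig2 and at 49.2 and 28 at 4 months and 36.7 and 154 at 8 months in neun, where 1 library of 8 months lay far above the other 3. The groups did not overlap and the log2 difference was -1.21 (SE 0.39, adjusted p = 0.0129), but without that neun library (replicate 2 of 8 months) it was -0.70 with an adjusted p of 0.126, and it missed the threshold also without olig2 replicate 2 of 4 months, either olig2 library of 8 months or neun replicate 1 of 4 months (adjusted p = 0.0504 to 0.0637). In SgshKO it was -0.13 (adjusted p = 0.634). All 6 tested pairs nearest Fos were called lower in the WT contrast, this window among them. The unpaired peaks nearest Fos went the other way, with 15 in olig2 and 4 in neun (summed deposited signals of 2000 and 131).

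**Figure D4:**
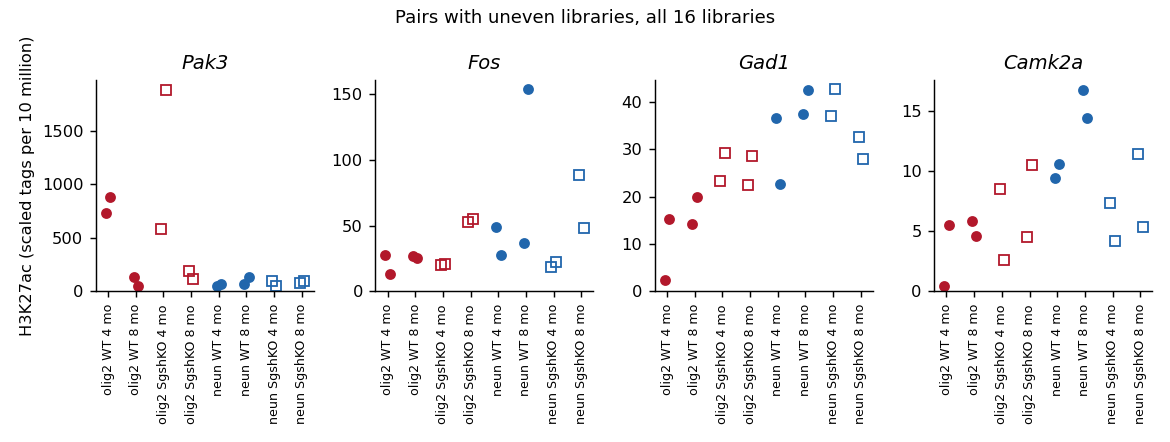
H3K27ac signal (y axis, scaled tags per 10M) at the pairs of Pak3, Fos, Gad1 and Camk2a in all 16 libraries by cell type, genotype and age, with filled circles for WT and open squares for SgshKO, each genotype scaled apart. At Pak3 the olig2 libraries of 4 months are high in both genotypes, and at Fos 1 neun WT library of 8 months stands at 154.

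Few markers of microglia or blood vessels had a promoter peak. Of the 17 microglia markers, 14 had no promoter peak in either table, and Csf1r and Tmem119, which define microglia, were the nearest gene of no peak, the other 15 being nearest to at least 1. Of the 19478 genes nearest to any peak, 26.7% had no promoter peak. Sall1 had a promoter peak in olig2 only, and 30 unpaired olig2 peaks and 3 neun peaks (summed deposited signals of 3356 and 3.29), and Cx3cr1 had 3 unpaired olig2 peaks at a median of 138 and no neun peak. Over the list, 40 unpaired olig2 and 34 neun peaks were counted, and 2 genes had more in olig2 and 11 more in neun; the part of microglia in the results was not tested. Of 15 endothelial and mural markers 11 had no promoter peak. Of their 7 tested pairs, 3 were called higher and 4 lower, with a median log2 difference of -1.75. Their unpaired peaks numbered 25 in olig2 and 52 in neun, with 12 and 12 at Cdh5 and 0 and 11 at Emcn. Among astrocyte markers 6 of 17 had none, 3 had one in olig2 only and 3 in neun only, and in the list 5 of 20 tested pairs were called higher and 2 lower, with a median log2 difference of 0.55. At the 5 promoter pairs of this list 1 was called higher, Aldoc (log2 difference 1.23, adjusted p = 0.0061), and 1 lower, Hes5 (-1.51, adjusted p = 0.000464), with a median of -0.47. Fgfr3 had its tested pair called lower, Slc1a2 had 1 unpaired olig2 and 16 neun peaks, and Slc1a3 14 and 6. Gfap, Aqp4 and Gja1 had no promoter peak. Genes expressed in nearly all cells gave a background for these lists: in the widely expressed list 40 of 90 tested pairs were called higher and 19 lower, with a median log2 difference of 0.30, and at its promoters 13 were higher and 14 lower of 43. Actb, an actin, was higher by 0.37 and Gapdh, of glycolysis, lower, at -1.14, and a difference as small as that of Actb rests on the scaling described above. Of the 7 tested pairs of Gapdh, 1 was called higher and 2 lower, and of the 6 of Actb, 4 higher and 0 lower.

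The strongest single pairs included genes that no list held. By the rule of the smallest p among pairs whose 4 and 4 libraries did not overlap, the promoter pairs higher in olig2 were Plekhh1, Dbndd2, Xaf1, Clasp2 and Gpr62. Plekhh1 had olig2 values of 662 and 619 at 4 months and 597 and 604 at 8 months and neun values of 2.1 and 3.99 at 4 months and 6.97 and 5.85 at 8 months at its start (chr12:79028764-79029564). The log2 difference was 6.85 (SE 0.20, adjusted p = 8.99e-13). Dbndd2 reached 774 and 853 at 4 months and 1028 and 1074 at 8 months in olig2 against 47.2 and 31.9 at 4 months and 76.2 and 66.4 at 8 months in neun (log2 difference 4.11, adjusted p = 8.99e-13), and Gpr62, an orphan receptor, stood at 604 ± 25.7 against 46.6 ± 4.92 (mean ± SD, n = 4). Distal pairs in this direction were nearest 5031439G07Rik, Bcl2l1, Mir7052, Tprn and Ldlrad4. Bcl2l1 encodes an inhibitor of apoptosis, and a window in its intron 2 (chr2:152819660-152820460) had olig2 values of 1114 and 896 at 4 months and 905 and 925 at 8 months and neun values of 9.43 and 6.65 at 4 months and 12.4 and 13.4 at 8 months. That log2 difference was 6.42 (SE 0.15, adjusted p = 1.97e-13), with no overlap.

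Lower promoter pairs chosen in the same way included Lingo1, 2210408F21Rik, Arpp21 and Cbarp. Lingo1, a leucine-rich repeat protein of neurons, had olig2 values of 20.5 and 16.6 at 4 months and 17.4 and 16.4 at 8 months and neun values of 373 and 321 at 4 months and 323 and 389 at 8 months at one of its starts (chr9:56635279-56636079). Its log2 difference was -4.24 (SE 0.16, adjusted p = 8.82e-12). Arpp21, a phosphoprotein of striatal and cortical neurons, had olig2 values of 13.4 and 12.9 at 4 months and 13.5 and 12.9 at 8 months against 271 and 265 at 4 months and 298 and 335 at 8 months in neun (log2 difference -4.37, adjusted p = 1.09e-11). At Cbarp, a regulator of calcium channels, the olig2 signal was 1.43 and 0.461 at 4 months and 10.7 and 8.1 at 8 months and the neun signal 181 and 186 at 4 months and 342 and 379.6 at 8 months, so libraries of 4 months were lower than those of 8 months in both cell types while the log2 differences at the ages were -6.62 and -5.13. Distal lower pairs were nearest Hook2, Cxxc5, Ski, Nr4a1 and Snx10. The window 12690 bp upstream of Nr4a1, an orphan nuclear receptor induced by activity, had olig2 values of 11 and 7.38 at 4 months and 13.9 and 12.9 at 8 months and neun values of 323 and 221 at 4 months and 272 and 328 at 8 months (log2 difference -4.56, adjusted p = 4.17e-11). Each of the 20 pairs chosen in this way was also called in the same direction in SgshKO libraries, which were not used to choose them. The same held for 88.5% of all WT calls at pairs tested in both genotypes.

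A smaller set of pairs was close to equal. The 95% interval of the log2 difference lay within 0.5 on either side of 0 at 725 pairs (2.35%), and 83.4% of these were promoter pairs, against 49.0% of all tested. The strongest of them, 1 per gene, were nearest Pisd-ps3, Setd1b, Zfp532, Malat1 and Zc3h4. Near equality did not mean that no test was passed: Pisd-ps3 was itself called lower (-0.19, adjusted p = 0.0173), and at 4 months alone Zc3h4 was lower (-0.40, adjusted p = 0.0095) and Setd1b higher (0.32, adjusted p = 0.0339). Zc3h4, a zinc finger protein of transcription, stood at 282 and 334 at 4 months and 455 and 443 at 8 months in olig2 and at 417 and 391 at 4 months and 423 and 415 at 8 months in neun, with a difference of -0.15 (95% interval -0.32 to 0.02). The window 9581 bp from Malat1, a nuclear non-coding RNA, had 406 and 370.5 at 4 months and 409 and 367 at 8 months in olig2 and 406 and 285 at 4 months and 475 and 507 at 8 months in neun (-0.08, interval -0.29 to 0.14). Pisd-ps3 lies on an unplaced scaffold and may share tags with copies elsewhere; its input signal was 47.3 and 78.3 at 4 months, so it is uncertain. This near equality rests on TMM: with library totals the differences at Setd1b, Zfp532, Malat1 and Zc3h4 were -0.25, -0.30, -0.46 and -0.53, each past the threshold.

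Peaks without a partner were counted by nearest gene. Of 17555 genes with an unpaired peak, 4862 had more in olig2, 11338 more in neun and 1355 equal numbers, with 50140 unpaired olig2 and 75197 unpaired neun peaks in all. At least 10 unpaired olig2 peaks and no neun peak were found at 180 genes, and the reverse at 572. The most unpaired olig2 peaks were nearest A230009B12Rik (146 olig2 and 3 neun), a non-coding RNA gene, followed by Rnf220 (117 olig2 and 1 neun), Gse1 (117 olig2 and 19 neun), A330074K22Rik (107 olig2 and 21 neun) and 4833428L15Rik (99 olig2 and 10 neun). Mir1936 had 94 olig2 and 3 neun peaks. On the neun side Rbfox3 led (1 olig2 and 145 neun), followed by Celf4 (3 olig2 and 142 neun), an RNA-binding protein of neurons, Phactr1 (20 olig2 and 105 neun), Umps (3 olig2 and 102 neun) and Atp2b2 (1 olig2 and 97 neun), a calcium pump. Celf2 had 4 olig2 and 97 neun peaks. Counts and paired promoters went together: genes whose promoter pair was at least 4-fold higher in olig2 (703) had a mean of 11 unpaired olig2 and 2.72 neun peaks, and those at least 4-fold lower (1384) had 1.52 and 8.77, beside 2.02 and 2.8 where neither was called.

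**Figure D5:**
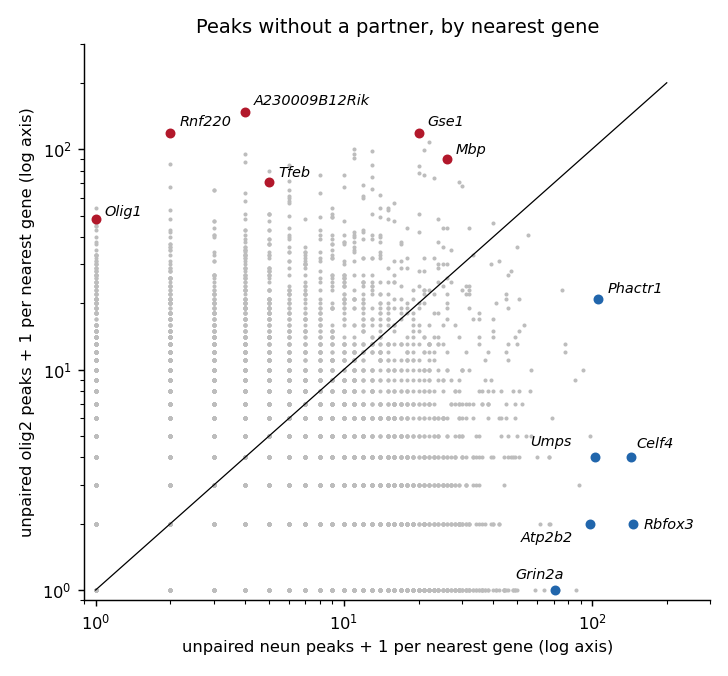
Number of unpaired neun peaks plus 1 (x axis) and of unpaired olig2 peaks plus 1 (y axis) for each nearest gene, on log axes, with named genes coloured red where olig2 peaks are more numerous and blue where neun peaks are, and a line at equal numbers. A230009B12Rik and Rnf220 stand at the upper left and Rbfox3 and Celf4 at the lower right.

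Not all genes leaned one way. Of 1927 genes with at least 3 called pairs, 632 had all higher, 455 all lower and 840 both. Cxxc5 had 20 pairs called higher and 15 lower of 39 tested, Gse1 16 and 10 of 34, and Zmynd8, a chromatin reader, 10 and 9 of 33. When distal peaks of one table were joined wherever neighbouring centres lay within 12.5 kb, 18757 regions formed from olig2 peaks and 31942 from neun peaks. The region with the largest summed olig2 signal held 151 peaks over 185796 bp on chromosome 17, of which 149 had no partner, with a sum of 42059.7 tags per 10M and a mean of 279 per peak. Most of its peaks were nearest the non-coding gene A230009B12Rik, and 3 neun peaks in its span summed to 32.2. The olig2 region that ranked 3 (chr15:79071404-79245215) held 174 peaks and 6 coding genes, Sox10 among them. The Mbp region ranked 10 in olig2, with 116 peaks. The leading neun region covered Rbfox3 (chr11:118478838-118922360) with 222 peaks, a sum of 10489 and a mean of 47.2 per peak, against 202 in 13 olig2 peaks. The neun region that ranked 5, whose peaks were nearest Umps, overlaps Kalrn, a regulator of dendritic spines (chr16:34094082-34345799), and held 129 neun peaks and no olig2 peak. Peaks were assigned by the nearest start, so a gene named here need not be the one a peak acts on.

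Most calls were shared by both ages. At 4 months 15330 pairs were called (49.7%) and at 8 months 14419 (46.7%). Of these, 11806 were called in the same direction at both, which is 77.0% of the calls at 4 months and 81.9% of those at 8 months, and 5 were called in opposite directions. The log2 differences at the 2 ages had a Spearman correlation of 0.873 across pairs. The test of the difference between ages found 1 pair past the threshold (0.00324%; 2358 at an unadjusted p below 0.05, and 2 by edgeR and 7 by DESeq2). It lies 35539 bp upstream of Pak3, a kinase gene on the X chromosome (chrX:143482652-143483452). Its olig2 signal was 737 and 884 at 4 months and 137 and 54 at 8 months, and its neun signal 54.5 and 69.2 at 4 months and 69.4 and 131 at 8 months. The log2 difference between cell types was 3.69 at 4 months and -0.14 at 8 months, a difference of -3.84 (adjusted p = 0.0234). The inputs were also high there, at 389.9 and 619.8 at 4 months and 2261 and 554 at 8 months in olig2 and neun, and this was the only tested pair with both 4-month inputs above 100. Leaving out olig2 replicate 2 of 4 months, olig2 replicate 2 of 8 months or neun replicate 2 of 8 months left no pair past the threshold, whereas 17, 11 and 9 pairs passed without neun replicate 1 of 4 months, neun replicate 2 of 4 months and olig2 replicate 1 of 4 months. The same test in SgshKO called 0 of 30928 pairs (limma, 0.00%; 2238 at an unadjusted p below 0.05), and there the Pak3 value was -3.15 (adjusted p = 0.128).

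The same comparison in SgshKO libraries, which share no library with WT, called 10154 of 30928 pairs higher in olig2 (32.8%) and 9281 lower (30.0%), or 6518 and 12830 with library totals. Olig2 replicate 2 of 4 months had 29.2% of its tags in peaks, below the other olig2 libraries, and without it 18935 pairs were called. Of the pairs tested in both genotypes, 16537 were called in the same direction, which is 88.5% of the WT calls and 85.7% of the SgshKO calls, and 2 in opposite directions. Of the promoter pairs plotted by library, those not called in the same direction in SgshKO were Camk2a, Gad1 and Fos, and whether the genotypes differ at them was not tested. Median log2 differences of the lists in SgshKO were 1.93 for myelin proteins, -2.04 for glutamate signalling and -2.22 for synaptic vesicle genes.

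Input chromatin, labelled for WT and SgshKO together, served as the background. Of 3052 pairs with enough input tags, 16 differed between olig2 and neun inputs (0.524%), all lower in olig2, with 130 at an unadjusted p below 0.05 (limma, 2 inputs per cell type with the ages as replicates). Of the 16, 6 were also called in the WT ChIP contrast. Median input was 2.86 tags per 10M in olig2 and 2.03 in neun at 4 months over the tested pairs. At 763 tested pairs each 4-month input stood above the mean ChIP signal of its cell type.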

How the data were processed

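H3K27ac ChIP-seq of sorted nuclei was deposited as tables of signal: per the file headers, the authors counted tags in windows at peaks per 10M tags on mm10. The peaks are labelled as ATAC-seq peaks. The submitters' processing notes name Bowtie2, HOMER and DESeq2. All low values were multiples of 1 or 0.5 tag, so tags were recovered from the deposited signal with the library totals in the headers.

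The members and gene lists were chosen with earlier results of these data known. Olig2 and neun peaks were paired by centre (200 bp), filtered on low tags with edgeR 4.0.16, scaled by TMM and tested in limma 3.58.1 (R 4.3.3) on log2(signal + 1), with Benjamini-Hochberg adjustment over all tested pairs. Samples were grouped by their labels as cell type, genotype and age. Named pairs were the 5 with the smallest p per direction and class among those whose libraries did not overlap, promoter pairs of a list of identity genes, and the 5 strongest near-equal pairs. The method was tested on simulated data in which a small part of the pairs was changed, equally up and down. That test does not cover data where most pairs differ. Alternatives were other scalings, pseudocounts, filters and pairing distances, edgeR and DESeq2 1.42.0 on recovered tags, input division and leaving out libraries. Replicate numbers did not pair the samples. Some members of these lists are not reported here.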

Additional observations from a re-analysis of the deposited data

Results flagged for a closer look

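At the pair upstream of Pak3, the olig2 minus neun log2 difference at 8 months was lower than that at 4 months by a tested difference of -3.84 (limma, adjusted p = 0.0234). It was flagged because the contrast between the cell types differed between the ages. The olig2 libraries of 4 months stood at 737 and 884 scaled tags per 10M and those of 8 months at 137 and 54.0, and the SgshKO olig2 libraries stood at 587 and 1887 at 4 months and at 189.7 and 116 at 8 months. In SgshKO the same test of the difference between ages gave -3.15 and missed the threshold (adjusted p = 0.128), and it called 0 of 30928 pairs (limma, 2238 at an unadjusted p below 0.05). The input signal there was 389.9 in olig2 and 619.8 in neun at 4 months, and its part in the result was not tested.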

How the results depend on the processing

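The WT contrast over both ages called 16532 to 19085 pairs when each library was left out in turn, the contrast at 4 months 13040 to 14660, that at 8 months 10548 to 15805 and that in SgshKO 17430 to 19512. The number of named pairs called was 36 to 38, and the number of lists with more pairs higher than lower was 7 to 8.

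The interaction of cell type and age, with 1 pair called, gave 0 pairs with library totals, with a pseudocount of 0.5 or over the 4-month inputs, 2 with edgeR, 7 with DESeq2, 3 with all 16 libraries and 0 to 17 when libraries were left out. Over the input of each age it gave 14486 pairs, where the 8-month olig2 input was empty at 65.0% of its peaks. The 16 pairs that differed between inputs became 0 with library totals or with a pseudocount of 5. Of the 15 lists, 8 had more pairs higher than lower, and 5 did over the 4-month inputs.

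Directions reversed in these cases, and the cause was not tested. The number of pairs higher minus lower was -13 (library totals) and -9 (4-month inputs) for the lysosome and MiT/TFE list, -1 (library totals) for microglia markers and -1 (4-month inputs) for widely expressed genes. Over the inputs of each age the log2 difference was 0.023 at Gad1, 0.088 at Pisd-ps3 and 0.34 at Malat1, and over the 4-month inputs 0.52 at Pisd-ps3. With library totals it was -0.25 at Setd1b and -0.30 at Zfp532. Calls were 9190 higher and 12028 lower over the 4-month inputs, and 11681 and 9131 over the inputs of each age. The 4-month input division and the scaling to promoters of widely expressed genes were chosen after seeing the data.

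Replicate numbers did not pair the samples (correlations of deviations -0.0131 to 0.0179), and the replicate block gave 18694 calls. WT neun libraries of 4 months held 7970059 and 6059671 tags, against at least 26849318 in the other WT libraries and 16273384 in the SgshKO libraries, which limits weak windows at that age.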
